A study of Mus musculus with 2 samples.

Results

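The genes described here encode the protein components of the cytosolic ribosome of the mouse. They were chosen by the symbol in the deposited table, as Rpl, Rplp or Rps followed by a number and at most one of the letters a, l and x, together with Rpsa and Fau. A level of at least 1 FPKM (fragments per kilobase of transcript, scaled to library size) in either library was also required. The symbol pattern matched 81 of the 47644 genes listed, and 79 passed the level minimum, 47 of the large and 32 of the small subunit. In all, 15883 genes reached 1 FPKM in either library and are called the tested genes below.

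The data are RNA sequencing of whole mouse eyeballs in oxygen-induced retinopathy (OIR), a model in which high oxygen halts and prunes the growing retinal vessels of the pup and the return to room air leaves the poorly supplied retina hypoxic. One OIR library and 1 control library were made from C57BL/6 mice. Pups of the OIR group entered hyperoxia at day 7, stayed there for 5 days, lived in room air afterwards and gave their eyes at day 17. The age and handling of the control animals, the number of eyes or animals in a library and their sex are not given in the labels, and no genetic alteration is named in either group. Each group was thus 1 library, no test between conditions was possible, and every interval below covers counting error only and says nothing about the spread between animals.

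The ribosome joins a small subunit, which reads the mRNA, to a large subunit, which forms the peptide bond. Its proteins are made in near-equal numbers, and their mRNAs are among the most abundant of most cells. Ribosomal protein mRNAs usually begin with a short run of pyrimidines, the 5′ terminal oligopyrimidine (TOP) tract, through which the growth kinase complex mTORC1 and the RNA-binding protein Larp1 control their translation and stability. In the retina, photoreceptors renew their outer segments throughout life and need constant protein synthesis.

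The start regions of 9 members are shown because the TOP tract is a known feature of these genes that was not used to choose them. They are members from both ends of the range of values below and, from its centre, Fau, and they include starts with and without a tract. RefSeq's promoter table (build GRCm38.p6) held 59 of the 79 members. Each line runs from 20 bases before the RefSeq start to base 20 of the transcript, on the gene's own strand. Capitals mark a run of at least 6 pyrimidines (C or T) with at least 1 of its bases within 5 bases of the start.
Rpl12, chr2:32961692-32961731 (+): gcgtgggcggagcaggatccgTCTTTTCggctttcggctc
Rplp2, chr7:141447631-141447670 (+): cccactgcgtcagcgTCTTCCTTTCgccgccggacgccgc
Rpl5, chr5:107900508-107900547 (+): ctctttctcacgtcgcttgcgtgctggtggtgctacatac
Rps9, chr7:3704021-3704060 (+): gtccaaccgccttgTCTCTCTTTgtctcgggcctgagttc
Rps27, chr3:90213629-90213668 (-): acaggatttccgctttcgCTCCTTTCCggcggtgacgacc
Rpl38, chr11:114668560-114668599 (+): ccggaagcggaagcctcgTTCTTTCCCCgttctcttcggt
Rpl13a, chr7:45128726-45128765 (-): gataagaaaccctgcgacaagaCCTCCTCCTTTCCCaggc
Rpl41, chr10:128549149-128549188 (-): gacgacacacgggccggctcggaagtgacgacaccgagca
Fau, chr19:6057927-6057966 (+): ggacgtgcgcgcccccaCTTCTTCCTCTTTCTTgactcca

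Such a run was found in 31 of the 59 matched members (52.5%), beside 23.0% of all 27025 genes of the table. The windows of Rpl5 and Rpl41 held none at the start used. For Rpl5 the outer edge of the RefSeq gene lies at the first base printed, where a run of pyrimidines begins, and for Rps9 and Rpl38 that edge lies further upstream, outside the window. In the longer window, from 250 bases before to 50 after the start and on both strands, CCGGAAG, a core letter string of ETS-family binding sites, stood in 24 members (40.7%) beside 9.93% of all genes. The GC-box string GGGCGG stood in 36 (61.0%) beside 38.2%, the YY1-type string AAGATGG in 10 (16.9%) beside 7.28%, and the TATA string TATAAA in 6 (10.2%) beside 15.7%. These are matches of letters, not sites of binding. The members with a tract had a median difference between the libraries of -0.27 and those without one of -0.28, on the log2 scale defined next, so the 2 sets lay at nearly the same value.

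Ribosomal protein mRNAs were lower in the OIR eyeball library than in the control library, nearly all of them and by a small amount. On the scale of log2(FPKM + 1), OIR minus control, the median difference over the 79 members was -0.29, with the middle 50% between -0.35 and -0.24. The difference was below 0 for 76 of the 79 members, beside 35.1% of the tested genes. The exceptions were Rplp2, Rpl3l and Rpl12. Over all tested genes the median difference was 0.11, so that the members' median lay 0.40 below it. Levels in a bulk library do not tell fewer cells of a type from less RNA per cell, and whole eyeballs mix many cell types.

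The shift was shallow as well as wide. An OIR level, as FPKM + 1, of at most 0.8 times that of the control library was found for 27 of the 79 members, beside 9% of the tested genes. A level at least 1.5-fold lower was found for 0 members, beside 2.58%, and at least 2-fold lower for 0, beside 0.718%. One member, Rpl12, was at least 2-fold higher, beside 3.07% of the tested genes. The authors' deposited table marks Rpl12 as up, with a log2 fold change of 3.16, and marks the other 78 members as neither up nor down.

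The exact 95% counting interval of the ratio of read shares, OIR over control, lay wholly below 1 for 73 members, beside 14.7% of the tested genes. It lay wholly above 1 for 2, Rpl12 and Rpl3l, beside 36.7%, and held 1 for the other 4. Since these genes are deeply covered, even a ratio near 0.82 stands outside counting error for most of them.

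Taken as one pool, the 79 members held 365464 of 20378793 reads in the OIR library and 341066 of 15741235 in the control library. That is 1.79% of reads (exact binomial interval 1.788 to 1.799) in the OIR library and 2.17% (2.160 to 2.174) in the control library, a ratio of 0.828 (0.824 to 0.832). Without Rpl12 the ratio was 0.819 (0.815 to 0.823). The ribosomal protein share of the library was thus lower by about as much as the typical member.

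**Figure D1:**
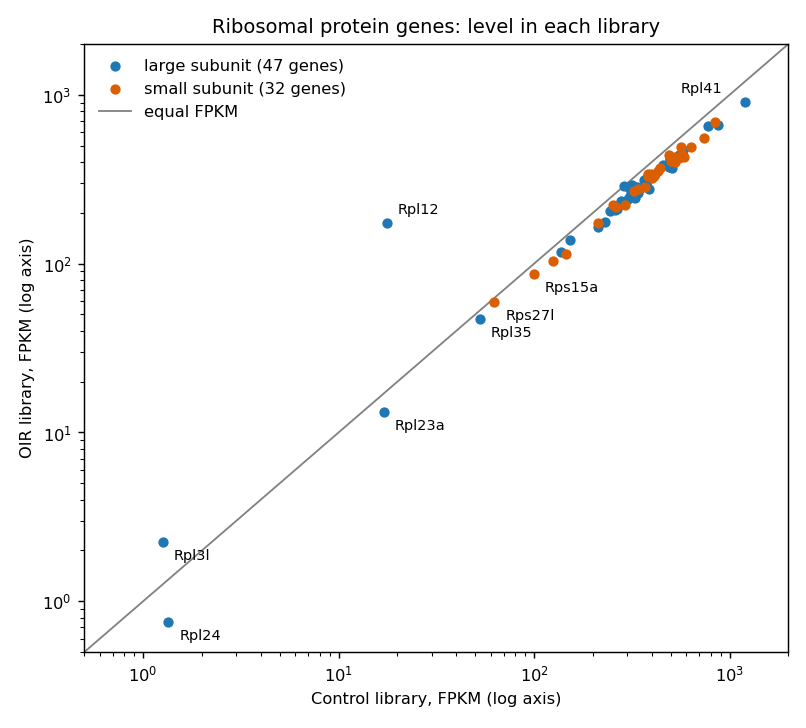
Level of each of the 79 ribosomal protein genes in the OIR library (vertical, FPKM, log axis) against the control library (horizontal, FPKM, log axis); the line marks equal levels. Nearly all points lie just under the line, at 0.756 to 909 FPKM in the OIR library, and Rpl12 lies far above it, at 174 FPKM in the OIR library and 17.7 FPKM in the control library.

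The order of the members was almost the same in both libraries, with a Spearman correlation of FPKM of 0.982 over the 79 genes, given as a description since all points share the same 2 libraries and gene lengths. Rpl41, whose product is one of the smallest proteins known, had the highest level in both, at 909 FPKM in the OIR library and 1205 FPKM in the control library. Rps14, a protein of the small subunit's platform, had 690 FPKM in the OIR library and 845 FPKM in the control library. Rplp1 and Rplp0, both of the stalk described below, had 663 and 658 FPKM in the OIR library, against 876 and 772 FPKM in the control library. These top members were all lower in the OIR library.

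At the low end of the list, the members just above the level minimum were few in reads. Rpl24 had 8 reads (0.756 FPKM) in the OIR library and 11 reads (1.35 FPKM) in the control library, and its ratio of 0.562 had an interval of 0.196 to 1.53. Rpl23a had 148 reads in the OIR library and 147 in the control library, or 13.2 and 17.0 FPKM. Just outside the minimum, Rpl39l had 5 reads (0.362 FPKM) in the OIR library and 6 reads (0.562 FPKM) in the control library, and Rpl10l had 0 reads in both. At 20378793 and 15741235 reads, changes in Rpl24 and Rpl39l were not detectable at this depth.

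Values of the large and the small subunit were close to each other. Members of the large subunit had a median difference of -0.30, with 44 of 47 below 0 and 17 at most 0.8 times the control level. Members of the small subunit had a median of -0.29, with 32 of 32 below 0 and 10 at most 0.8 times the control level. The medians differed by -0.01, large minus small, while the middle 50% of either set spanned about 0.1. As a pool, the large subunit had a read share ratio of 0.819 (0.814 to 0.824) without Rpl12 and the small subunit one of 0.820 (0.814 to 0.826), intervals that overlap almost wholly. With Rpl12 counted, the ratio of the large subunit was 0.833 (0.828 to 0.839).

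**Figure D2:**
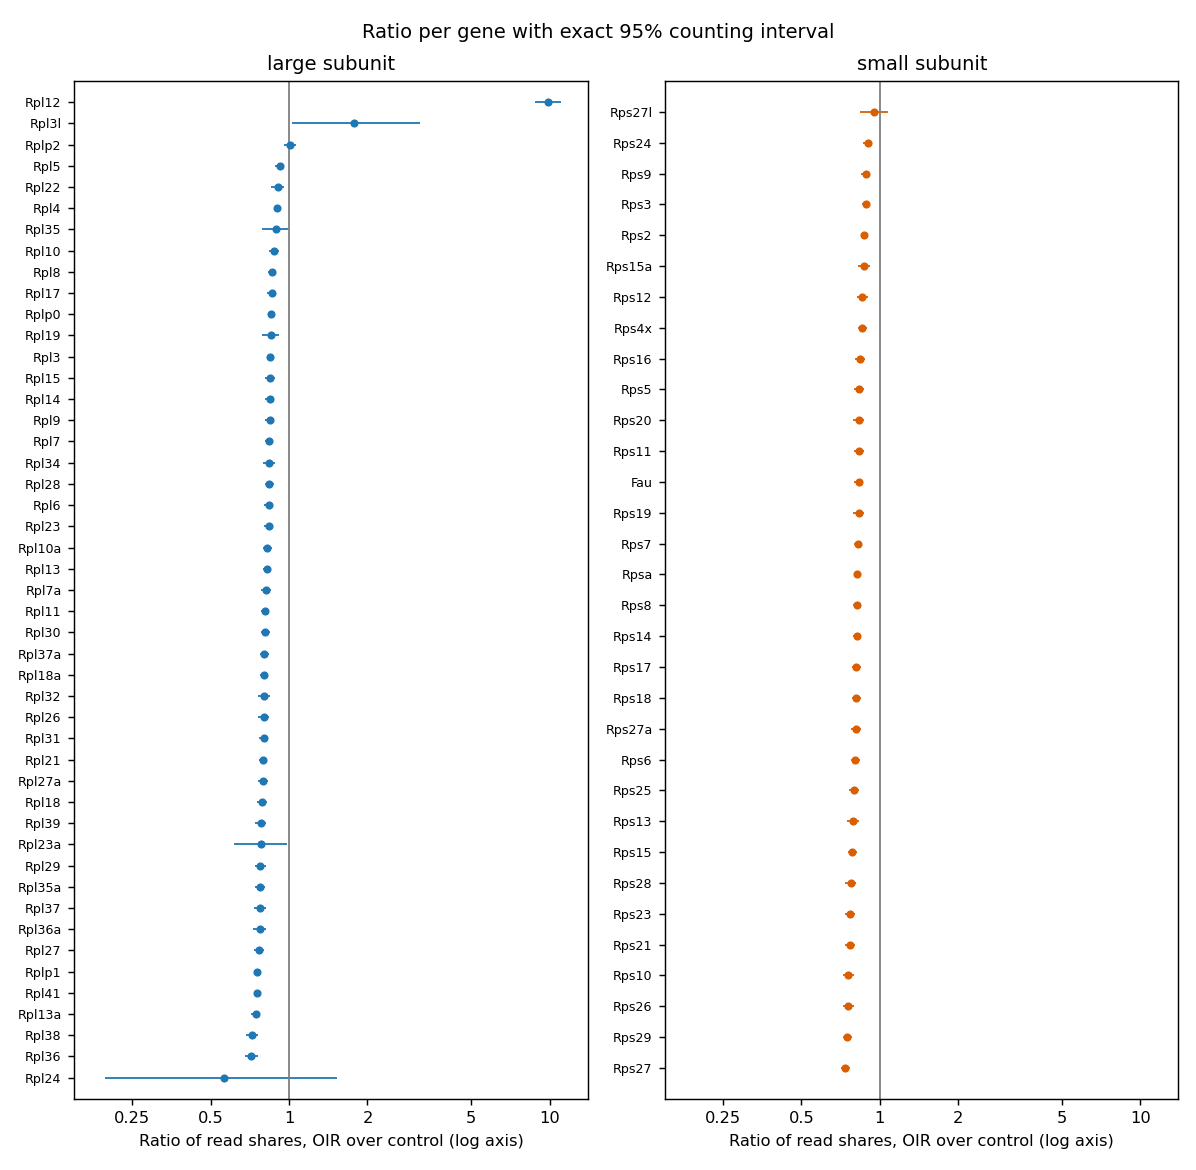
Ratio of read shares, OIR over control (log axis), of each member of the large subunit (left panel) and the small subunit (right panel), with exact 95% counting intervals as bars and a line at 1. Most points in both panels form a narrow column between about 0.72 and 0.95, left of the line. Rpl12 at 9.83 and Rpl3l at 1.78 lie right of the line, and Rplp2 at 1.01 lies on it. The little-read Rpl24 lies left of the column, at 0.562, with the widest bar.

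Within this narrow column the members were not all alike. The median ratio over the 78 members other than Rpl12 was 0.818. The counting interval lay wholly below it for 17 members, wholly above it for 17 and held it for 44.

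Rpl36 had the lowest difference of all, -0.48, with 275 FPKM in the OIR library and 385 FPKM in the control library and a ratio of 0.715 (0.675 to 0.757). Rpl38, which in mice is needed for normal patterning of the axial skeleton, had 367 FPKM in the OIR library and 509 FPKM in the control library, a ratio of 0.721 (0.685 to 0.759). Rpl13a, which in human myeloid cells also leaves the ribosome to repress inflammatory mRNAs, had 244 FPKM in the OIR library and 328 FPKM in the control library, a ratio of 0.744 (0.716 to 0.773). Rpl41, the member with the highest level, was also near this end, with a ratio of 0.754 (0.734 to 0.775). For all of these genes the interval ended well below the median ratio of the members.

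On the small subunit the same end was held by Rps27 and Rps29, both zinc-binding proteins, by Rps26, which lies where the mRNA leaves the ribosome, by Rps10 and by Rps21. Rps27 had 431 FPKM in the OIR library and 584 FPKM in the control library, a ratio of 0.738 (0.707 to 0.770). Rps29 had 553 FPKM in the OIR library and 738 FPKM in the control library, a ratio of 0.748 (0.719 to 0.779). The differences of Rps26, Rps10 and Rps21 were -0.40, -0.40 and -0.38.

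At the other end of the column stood members whose levels were closest in the 2 libraries. Rpl5, which with Rpl11 and 5S rRNA forms a particle that can bind Mdm2, had 293 FPKM in the OIR library and 318 FPKM in the control library, a ratio of 0.920 (0.887 to 0.955). Its partner Rpl11 had 469 FPKM in the OIR library and 578 FPKM in the control library, a ratio of 0.811 (0.782 to 0.841), so the intervals of the 2 partners did not overlap. Rpl22, a large subunit protein needed for T cell development in mice, had 139 FPKM in the OIR library and 153 FPKM in the control library, a ratio of 0.905 (0.855 to 0.959). Rpl4, which lines the exit tunnel of the growing peptide, had a ratio of 0.902 (0.873 to 0.932). All of these were still lower in the OIR library.

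Of the small subunit, Rps24 had 442 FPKM in the OIR library and 492 FPKM in the control library, a ratio of 0.897 (0.864 to 0.932). Rps9 and Rps3, which both lie where the mRNA enters, had 340 and 223 FPKM in the OIR library, against 384 and 252 FPKM in the control library. Their differences were both -0.18.

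The next 3 members are made with an extra protein part or are known for a role off the ribosome, and all stood near the centre of the set. Rps27a, made as a fusion with ubiquitin, had 275 FPKM in the OIR library and 339 FPKM in the control library, a difference of -0.30. Fau, made as a fusion of a ubiquitin-like protein with the small subunit protein S30, had 355 FPKM in the OIR library and 429 FPKM in the control library, a difference of -0.27. Rpsa, also known as the laminin receptor precursor, had 215 FPKM in the OIR library and 262 FPKM in the control library, a difference of -0.28.

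Members of the P stalk, a flexible arm of the large subunit that recruits the elongation factors, lay apart from each other. Rplp0, the base of the stalk, had a difference of -0.23 and a ratio of 0.852 (0.830 to 0.874). Rplp1 had a difference of -0.40 and a ratio of 0.756 (0.731 to 0.782). Rplp2, its partner in the stalk dimers, had 3435 reads (290 FPKM) in the OIR library and 2629 reads (287 FPKM) in the control library, a difference of 0.01 and a ratio of 1.01 (0.959 to 1.06). The intervals of Rplp1 and Rplp2, whose products pair with each other, were far apart, and that of Rplp2 held 1.

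Rpl12, whose product sits beside the foot of that stalk where elongation factors dock, was the one member far from all the others. The gene (ENSMUSG00000038900) lies on chromosome 2 at 32961559 to 32965345 (mm10, plus strand). It had 4112 reads (174 FPKM) in the OIR library and 323 reads (17.7 FPKM) in the control library, a difference of 3.23 and a ratio of 9.83 (8.78 to 11.0). That placed it 18th of the 15883 tested genes by difference, highest first. Rpl12 had been singled out for this difference, so these values describe it and test nothing.

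Rpl12 was below the median member in both libraries, and much further below it in the control library. In the OIR library it ranked 68th of the 79 members by FPKM, at 174 FPKM beside a member median of 296 FPKM, and held 1.13% of their reads. In the control library it ranked 76th, at 17.7 FPKM beside a member median of 373 FPKM, and held 0.0947% of their reads.

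Neighbouring genes did not share this ratio. Within 50000 bases, Lrsam1, which overlaps the start of Rpl12 on the opposite strand, had a ratio of 1.03 (0.905 to 1.17), Slc2a8 one of 1.01 (0.854 to 1.20) and Garnl3 one of 0.995 (0.814 to 1.22). The nearest neighbour with a ratio wholly above 1 was Fam129b, at 1.68 (1.55 to 1.82). Snora65, a small nucleolar RNA inside Rpl12, had 0 reads in both libraries.

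By sequence, 6 other annotated genes hold a near-identical copy of the Rpl12 coding sequence, by a match of at least 95% identity over at least 80% of it to GENCODE M21 transcripts. They had 118 reads in the OIR library and 0 in the control library. Of these, Gm10275 had 115 in the OIR library and 0 in the control library. The best match among the 6 genes was identical at 100%. Adding them to Rpl12 gave 4230 reads in the OIR library and 323 in the control library, a ratio of 10.1 (9.03 to 11.4). Reads dropped for matching several genes, if any were, are not in these counts. Of the 862 tested genes with at least 100 FPKM in either library, 9 had a ratio of at least 5, a description only, since Rpl12 was singled out for its ratio and reached 100 FPKM in the OIR library alone. Besides Rpl12 these were the protein-coding Hsp90aa1 and Lars2, both mitochondrial rRNA genes, 1 other rRNA gene and 3 genes annotated as miRNA. As a group, rRNA genes held 0.153% of reads in the OIR library and 0.00791% in the control library, and the relation of this to Rpl12 was not tested.

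Near-identical copies matter for the whole set, since they can take or give reads. Of the 79 members, 71 had at least 1 such gene, with a median of 5 and a maximum of 57 for Rpl21. Of the 555 distinct genes with a copy, not all are listed in the deposited data. Those listed together held 4462 reads in the OIR library and 3551 in the control library, few beside the members' own reads. These are counts of whole genes, not of the copied stretch. Ciapin1, matched by Rpl7a, gave 1041 of them in the OIR library and 939 in the control library. For Rpl21 the ratio was 0.796 (0.766 to 0.826) alone and 0.803 (0.776 to 0.832) with its 46 listed copies. Most of the reads added came from BC004004, with 881 of 1006 in the OIR library and 769 of 915 in the control library. The second ratio thus says little about the other copies. No source used here says how reads with several matches were counted, and the low levels of Rpl24 and Rpl23a may miss such reads. Another listed gene, often a small nucleolar RNA, overlapped the span of 43 members, whose median difference was -0.29, against -0.28 for the 36 with none.

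Several ribosomal proteins have a second, differently expressed gene. Rps27l, a p53 target related to Rps27, had 59.5 FPKM in the OIR library and 62.7 FPKM in the control library, a ratio of 0.950 (0.837 to 1.08), so its interval did not reach that of Rps27. Rpl3l, a form of Rpl3 specific to striated muscle, had 46 reads (2.25 FPKM) in the OIR library and 20 reads (1.27 FPKM) in the control library, a difference of 0.52 and a ratio of 1.78 (1.03 to 3.17). Rpl3 itself had a ratio of 0.847 (0.820 to 0.875). The 9 tested skeletal muscle markers had a median difference of 0.22, with 7 above 0. Over all tested genes the median was 0.11, with 10308 of 15883 above 0. All 12 listed muscle markers had a summed level of 149.6 FPKM in the OIR library and 153.0 FPKM in the control library. The part of these markers in the value of Rpl3l was not tested.

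Other such genes lie outside the symbol rule, Rps4l because the deposited table gives its row no symbol (the name used here is that of GENCODE M21). Rpl22l1, which can stand in for Rpl22, had 12.9 FPKM in the OIR library and 17.8 FPKM in the control library, a difference of -0.44 and a ratio of 0.722 (0.582 to 0.894), lower than that of Rpl22 although the intervals met. Rpl7l1 had 17.3 FPKM in the OIR library and 17.0 FPKM in the control library, and Rps4l 30.7 and 30.0 FPKM, differences of 0.02 and 0.03. Rps3a1 and Gnb2l1 (Rack1), a signalling scaffold on the small subunit, also lie outside the rule but are not second genes of this kind. Their differences were -0.17 and -0.26.

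Differences among the members ran with transcript length. The length that read count and FPKM imply had a median of 697 bases over the members and of 1928.5 bases over the 13642 tested protein-coding genes. Among the 72 members with at least 100 FPKM in both libraries, the Spearman correlation of length with the difference was 0.432, a description over genes that share both libraries. Split evenly by length, the 24 shortest (384 to 616 bases) had a median difference of -0.36, the 24 in the middle -0.28 and the 24 longest (862 to 1861 bases) -0.26.

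The same gradient ran through the tested protein-coding genes as a whole. The shortest eighth of them had a median difference of -0.08, with 60.0% below 0, and the longest eighth one of 0.20, with 22.6% below 0. Among the 420 genes other than members in both the shortest and the most abundant eighth, 307 were below 0 and the median was -0.16. The 60 members in the same class had a median of -0.30, with 59 below 0. After centring on the median of genes of like length, the members' median was -0.19, with 73 of 79 still below 0. The gap between members and other genes thus narrowed within these broad length classes and did not close. Whether it would close with a finer match of length was not tested. The part of RNA quality or library preparation in the gradient was not tested either.

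**Figure D3:**
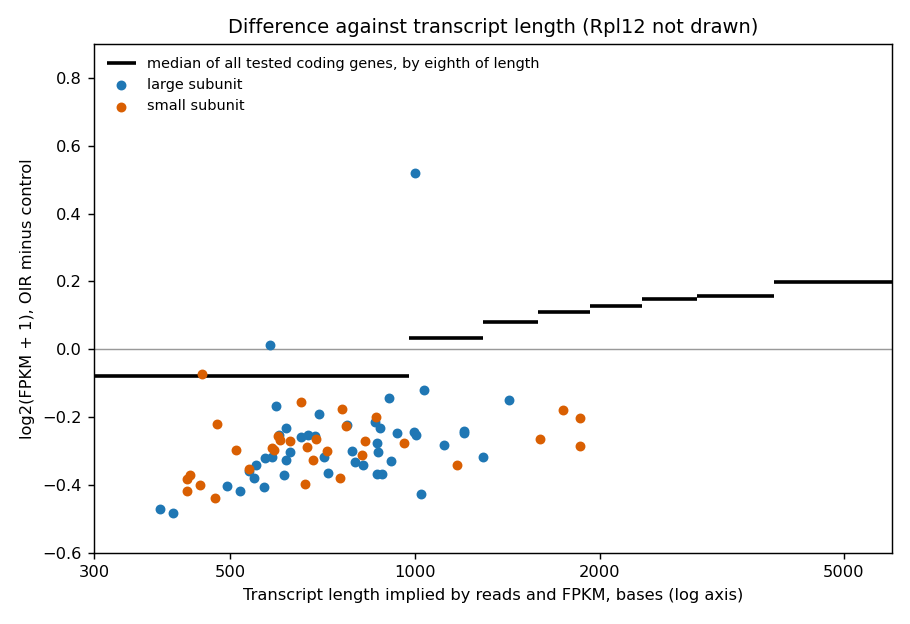
Difference in log2(FPKM + 1), OIR minus control, of each member except Rpl12 against the transcript length implied by reads and FPKM (log axis), with black lines for the median of all tested coding genes in each eighth of length. The lines climb from -0.08 in the shortest eighth to 0.20 in the longest. The drawn members lie under them except Rpl3l, Rplp2 and, by little, Rps27l. The 24 shortest of the abundant members had a median of -0.36 and the 24 longest one of -0.26.

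The rest of the translation machinery was compared through lists chosen by function, most of them with a longer median length than the members. That length was 697 bases over the members, 1216.5 over elongation factors and other TOP genes, and 2212.5 over regulators of mTORC1 and TOP mRNAs. The part of length in the contrasts below was not tested. Over all tested genes the median difference was 0.11, with 35.1% below 0. Elongation factors and other genes with TOP mRNAs, 24 in all, had a median difference of -0.08, with 18 below 0. Eef1a1, which brings aminoacyl-tRNA to the ribosome, had 1838 FPKM in the OIR library and 2058 FPKM in the control library, a ratio of 0.893 (0.880 to 0.907). Tpt1, a TOP mRNA with a growth-related product, had 773 FPKM in the OIR library and 867 FPKM in the control library, a ratio of 0.892 (0.868 to 0.916). Eef2, which moves the ribosome along the mRNA, had 437 FPKM in the OIR library and 448 FPKM in the control library, a ratio of 0.976 (0.959 to 0.994). These abundant TOP mRNAs were lower too, by less than most ribosomal proteins, and the list, which also holds Gnb2l1, ran from -0.35 for Eif3k to 0.18 for Vim.

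Initiation factors had a median of -0.02, with 13 of 25 below 0, from -0.31 for Eif3i, a subunit of the eIF3 scaffold, to 0.34 for Eif1a. Factors of ribosome assembly had a median of 0.10, with 9 of 37 below 0, close to the 0.11 of all tested genes. They ran from -0.38 for Nop16 to 0.65 for Nop2, which methylates rRNA of the large subunit and had 14.9 FPKM in the OIR library and 9.16 FPKM in the control library. Genes of rRNA transcription had a median of -0.05, with 11 of 20 below 0, from -0.36 for Polr2f, a polymerase subunit, to 0.32 for Ttf1 among those with at least 5 FPKM in either library. The lower values of the ribosomal protein genes were not mirrored in the list of assembly factors. That list had a median length of 1523 bases, however, and tested coding genes of 1290 to 1590 bases had a median difference of 0.08.

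Regulators of mTORC1 and of TOP mRNAs had a median of 0.16, with 7 of 22 below 0. Both values were near those of all tested genes, a median of 0.11 with 35.1% below 0. Larp1, which binds the TOP tract, had 29.8 FPKM in the OIR library and 24.2 FPKM in the control library, a ratio of 1.23 (1.16 to 1.31). The kinase gene Mtor had 36.0 FPKM in the OIR library and 33.9 FPKM in the control library, a ratio of 1.06 (0.997 to 1.13). Eif4ebp1, a repressor of cap-dependent initiation that mTORC1 switches off, had the highest difference of the list, 0.68, and Pdcd4, an inhibitor of the helicase eIF4A, had -0.25. These are mRNA levels and do not report the activity of the kinase.

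Genes of the p53 response and of ribosome stress had a median of 0.22, with 2 of 16 below 0. Over all tested genes the median was 0.11, with 35.1% below 0. The list had a median length of 1988 bases. Tested coding genes of 1929 to 2342 bases had a median difference of 0.13, with 30.3% below 0. Cdkn1a, the p53 target that halts the cell cycle, had 25.5 FPKM in the OIR library and 8.84 FPKM in the control library, a difference of 1.43 and a ratio of 2.89 (2.42 to 3.45). Mdm2, which the free Rpl5 and Rpl11 particle can bind, had a difference of 0.11, that of the median tested gene, and Ccng1 one of -0.30.

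Host genes of small nucleolar RNAs, many of which also have TOP transcripts, had a median of -0.17, with 8 of 13 below 0. Their median length was 766 bases. Tested coding genes of up to 980 bases had a median difference of -0.08, with 60.0% below 0. Gas5 had 174 FPKM in the OIR library and 208 FPKM in the control library, a ratio of 0.837 (0.792 to 0.885), close to that of the median ribosomal protein gene. The list ran from -0.52 for Snhg6 to 0.18 for Snhg14. Small nuclear-encoded subunits of the respiratory chain were chosen because most of them too are short and abundant. Their median length was 584 bases, although Atp5g1 had 2666 bases. This list had a median difference of -0.44, with 24 of 24 below 0, from -0.58 for Cox6b1 to -0.25 for Uqcrb. The uniform lower level was thus not confined to the ribosome, and in the respiratory chain list its median was lower still.

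**Figure D4:**
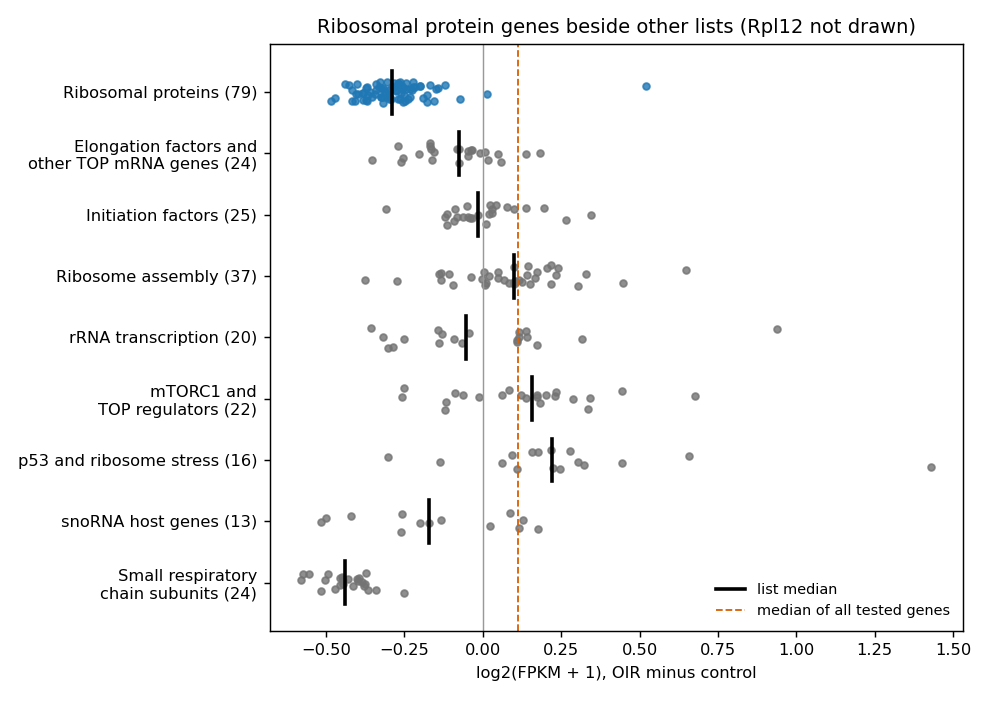
Difference in log2(FPKM + 1), OIR minus control, of each gene in the ribosomal protein set (top, Rpl12 not drawn) and in 8 comparison lists, with list medians as black bars and the median of all tested genes, 0.11, as a dashed line. Ribosomal protein genes form a tight group around -0.29, the respiratory chain list lies lower, around -0.44, and the lists for assembly, mTORC1 and p53 lie at 0.10 to 0.22.

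The tissue makeup of the libraries also differed. The 17 tested of 18 lens markers were all below 0, with a median of -0.51 and a summed level of 112533 FPKM in the OIR library and 157848 FPKM in the control library, and the lens marker Lim2 was listed at 0 in both. Corneal epithelium markers were above 0 for 13 of 14 tested, and all 15 listed had a summed level of 1833 FPKM in the OIR library and 890 FPKM in the control library. Erythrocyte markers (5 of 5) and microglial markers (8 of 9) were mostly above 0. Ganglion cell markers (11 of 12) and Müller glia markers (9 of 12) were mostly below 0. Over all tested genes, 10308 of 15883 were above 0 and 35.1% below it, with a median of 0.11. Markers of the retinal pigment epithelium were near this, with 7 of 9 tested above 0 and a median of 0.10. Rod markers were level, at 19797 FPKM summed in the OIR library and 19836 FPKM in the control library. Lens and rod markers, which a whole eyeball should hold, were thus high in both libraries.

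The part of this makeup in the ribosomal protein values was not tested. Of the reads left after removing lens, skeletal muscle, erythrocyte, mitochondrial and rRNA genes, the 79 members held 2.25% in the OIR library and 2.94% in the control library, a ratio of 0.763 (0.760 to 0.767). Genes of the cornea, microglia, ganglion cells and Müller glia were not removed in this.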

How the data were processed

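Total RNA from eyeballs was made into libraries with the NEBNext Ultra RNA kit, per the labels' protocols. Bowtie2 2.2.3, TopHat2 2.0.12, HTSeq 0.6.1 and build mm10 are named in the submitters' processing notes; no source used here gives their settings, the annotation release or the use of strand. Per the file headers, the authors deposited read counts and FPKM values per gene for both libraries, a scaled signal (counts divided by 1 factor per library), a log2 fold change, and p-values. The p-value columns compare 1 library with 1 library and were not used; the signal served only to read the authors' factors. The 5 broken lines of the table were dropped.

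Differences are log2(FPKM + 1), OIR minus control, for genes with at least 1 FPKM in either library; the pseudocount of 1 understates changes of low genes. Ratios are of read shares, with exact conditional (Clopper-Pearson) 95% intervals that cover counting error only, since PCR copies of 1 molecule can be read many times. Depth was 20378793 reads (OIR) and 15741235 reads (control). No test between groups was made.

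The members and all lists were chosen with earlier results of these data known. Genes named are the 4 highest and 4 lowest differences of each subunit among members with at least 5 FPKM, the 3 highest levels, Rpl12, the stalk genes, Rpsa, Fau, Rps27a, members ending in l, the extremes of each list, and Gas5, Eef1a1, Eef2, Tpt1, Larp1 and Mtor; 1 further gene of this rule is not reported here. Others (such as Rpl11, Rpl21, Rpl23a, Rpl24, Rpl3, Rpl4, Mdm2 and the neighbours of Rpl12) were named after their values were seen. Near-identical copies were found with blastn 2.17.0 against GENCODE M21. Python 3.11.15, numpy 2.4.6, pandas 2.3.3, scipy 1.17.1 and matplotlib 3.10.9 were used. Interval scripts were tested on simulated data.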

Additional observations from a re-analysis of the deposited data

How the results depend on the processing

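The median difference of the members, -0.29, became -0.19 with TPM, -0.36 with TPM after leaving out lens, muscle, erythrocyte, mitochondrial and rRNA genes, -0.43 with the authors' factors, -0.40 when centred on all tested genes, -0.19 when centred within 20 bins of length, and -0.23 as a mean. The median of all tested genes moved with the scaling, to 0.20 with TPM and to -0.01 with the authors' factors, and the members stayed 0.36 to 0.42 below it, or 0.21 within length bins. The number of members at least 1.5-fold lower, 0, became 1 with pseudocounts of 0.1 and 0.01, 1 with the TPM without those tissues, 1 when centred, 2 with the authors' factors and 27 at a threshold of at most 0.8 times. The large minus small difference of -0.01 became 0.00 (0.00214) without the level filter and 0.0871 as means, which include Rpl12. The pooled ratio of 0.828 became 0.763 and, over protein-coding reads, 0.833. In every setting run, 73 to 77 members were below 0, Rpl12 was the single member changed at least 2-fold, and its difference was 3.09 to 3.34. No paired analysis was possible because each group has 1 library. With 1 library a group, no replicate could be left out.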
